A study of Mus musculus with 16 samples.

Results

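Imprinted genes are expressed mainly from the maternal or from the paternal chromosome. The 40 genes described here were listed by symbol from the imprinted domains of the mouse and all 40 were found in the GENCODE M21 annotation, 35 of them protein-coding and 5 long non-coding RNA genes, of 35312 coding and long non-coding genes in all (21938 coding and 13374 long non-coding). They lie in 17 domains. For each gene, RNA polymerase II (Pol II) at the promoter and in the gene body, and monoubiquitylated histone H2B (H2Bub1) in the gene body, were read from the peak lists of chromatin immunoprecipitation and sequencing (ChIP-seq). The antibodies had been raised against H2Bub1 and against RPB1, the subunit of Pol II that carries its catalytic centre.

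The libraries came from mouse cells of the strain DBA/2 x C57BL/6 that were Atxn7l3+/+ (WT) or Atxn7l3-/- (KO). ATXN7L3 is the adaptor protein that USP22 and related ubiquitin proteases need to remove ubiquitin from H2B, so the comparison asks what lies on chromatin when this removal is impaired. The mouse embryonic stem cells (mESCs) had been derived from blastocysts and were grown with serum, LIF and the kinase inhibitors PD0325901 at 1 uM and CH99021 at 3 uM. The mouse embryonic fibroblasts (MEFs) had been cultured from E10.5 embryos after the head and the gastrointestinal tract were taken off, so the dish can hold other cell types of the trunk. Per the methods, the null allele came from mice with a targeting construct that were mated with a recombinase deleter strain. The labels do not say how many lines or embryos stand behind a library. Each of the 8 groups (2 cell types, both genotypes and both antibodies) had 1 library. Without replicates, no difference below could be set against the spread of a group and p-values are not given. The read depth behind the lists is unknown.

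In an imprinted domain, a stretch of DNA that is methylated on the chromosome of 1 parent, the imprinting control region, sets which genes of the domain are used on which chromosome. Many domains hold a long non-coding RNA gene whose transcription keeps coding genes silent on the same chromosome. Imprinted genes are known for their part in fetal growth, placenta and metabolism, and several are strongly used in embryonic mesenchyme and weakly in stem cells. The reads were not assigned to parents, so a peak can come from either chromosome or from both, and loss of imprinting cannot be read from these values.

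Over the whole series, the KO lists held fewer Pol II peaks (11963 against 17074 of WT for mESCs, 32232 against 45869 for MEFs). The H2Bub1 lists held 40979 and 48952 peaks in WT and KO mESCs and 19723 and 28856 in WT and KO MEFs, which covered 71.6 Mb, 151.1 Mb, 48.1 Mb and 223.0 Mb of the genome. The promoter of Atxn7l3, the targeted gene, had a Pol II peak in all 4 lists, with a fold of 3.61 and 3.71 in WT and KO mESCs and of 20.9 and 23.4 in WT and KO MEFs, so the promoter does not show the deletion. All 6 stem cell markers (Pou5f1, Sox2, Nanog, Tfcp2l1, Zfp42 and Dppa5a) had a Pol II promoter peak in both mESC lists. In MEFs, 0 of these 6 had such a peak in WT and 1 of 6, Tfcp2l1, in KO. All 6 fibroblast markers (Col1a1, Col1a2, Thy1, Twist2, Fbn1 and Col3a1) had such a peak in both MEF lists and 0 of 6 in either mESC list. Their folds in MEFs were lower in KO for all 6 (10.47 to 49.2 in WT, 5.38 to 23.9 in KO, median log2 ratio -1.06), and those of the stem cell markers in mESCs were lower in KO for 2 of 6 (median log2 ratio 0.18). Of the other cell types a MEF dish could hold, 0 of 4 epithelial and 0 of 3 blood markers had a Pol II promoter peak in either MEF list, 1 of 3 endothelial markers did in each (Kdr in WT, Pecam1 in KO), and 1 of 3 neural markers, Tubb3, did in both.

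A promoter peak is a Pol II peak with at least 1 bp within 1000 bp on either side of the transcription start site (TSS) of the gene record. Its fold is the ratio of the pileup at the summit over the local background of the same library. The MEF lists are longer than the mESC lists and were not matched to them in number, so counts in both cell types are read beside those of all coding genes. In WT mESCs, 11 of the 35 coding members had a promoter peak, against 33.9% of all coding genes. In KO mESCs it was 7 of 35, against 31.3%. In WT MEFs 21 of 35 had one, against 54.1%, and in KO MEFs 17 of 35, against 51.1%. The share of coding members thus lay close to the share of all coding genes in WT mESCs and in both MEF lists. It was lower in KO mESCs, where the exact 95% interval of 8.44% to 36.9% held the share of all coding genes. Mest, Grb10, Gnas, Blcap and Impact had a peak in KO mESCs only at an annotated start other than the record's TSS. All 5 long non-coding members (H19, Kcnq1ot1, Airn, Meg3 and Peg13) had a promoter peak in WT MEFs and 4 of 5 in KO MEFs, against 20.4% and 16.8% of all long non-coding genes. In mESCs, Kcnq1ot1 and Airn had a peak in both genotypes and Peg13 in KO.

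Between the cell types, 11 of 35 coding members had a peak at the record's TSS in WT MEFs and not in WT mESCs, against 22% of all coding genes. They were Cdkn1c, Zim1, Peg10, Sgce, Rtl1, Mkrn3, Grb10, Nnat, Impact, Trappc9 and Inpp5f. The opposite, a peak in WT mESCs and not in WT MEFs at the TSS of the gene record, held for 1 of 35, Plagl1, against 1.82%. At the record's TSS, the strongest promoter peak of a member in WT MEFs was that of H19 with a fold of 34.0. The summit of that peak lay 3220 bp downstream of the TSS. Meg3 followed with 28.7 and Grb10 with 27.5. H19, Meg3 and Grb10 had no peak at the record's TSS in either mESC list. With every annotated start taken, Gnas (31.9) lay above Meg3 in WT MEFs, and Plagl1 (28.6) and Mest (27.8) lay above Grb10.

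**Figure D1:**
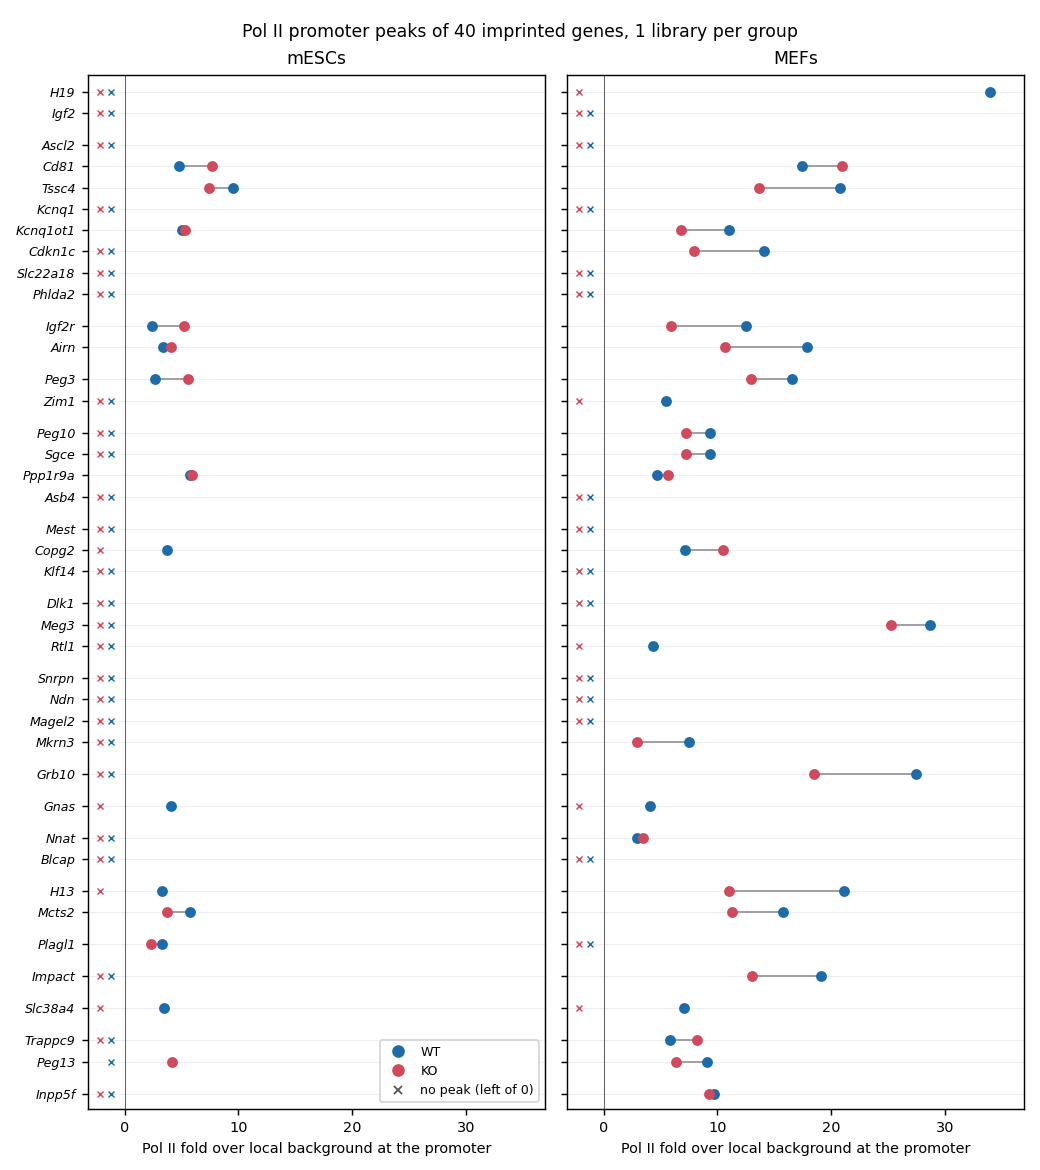
Pol II promoter fold of each of the 40 members (rows, ordered by domain) in mESCs and in MEFs, as fold over the local background on a linear axis. Blue points are WT, red points KO, grey lines join the values of a gene, and crosses left of 0 mark lists with no promoter peak. H19 has a blue point at 34.0 in MEFs and no red one, whereas Meg3 has points at 28.7 and 25.3.

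Between the genotypes, 7 of the 35 coding members had a promoter peak in both lists of mESCs, against 26.2% of all coding genes, and 17 of 35 in both lists of MEFs, against 49.6%. In mESCs 4 of 35 coding members (Copg2, Gnas, H13 and Slc38a4) had a peak in WT only, against 7.64% of all coding genes, and 0 of 35 in KO only, against 5.13%. Over all 40 members, 5 had a peak in 1 genotype only in mESCs, and 8 at a -log10 q of at least 3. In MEFs 4 of 35 (Zim1, Rtl1, Gnas and Slc38a4) had a peak in WT only, against 4.41%, and 0 of 35 in KO only, against 1.46%. At the record's TSS, the WT-only peaks of coding members were low, with folds of 3.26 to 4.04 in mESCs and of 4.05 to 7.10 in MEFs. At other annotated starts, Igf2 had a fold of 15.4 in WT MEFs and no peak in KO MEFs. Snrpn likewise had 4.30 in WT mESCs and no peak in KO mESCs. Gnas had a peak at another start in KO of both cell types. Among coding members with a peak in both lists, the fold was lower in KO for 3 of 7 in mESCs, against 47.5% of such coding genes, and for 12 of 17 in MEFs, against 67.7%. The median log2 ratio of KO over WT fold was 0.05 over the 7 in mESCs and -0.37 over the 17 in MEFs, beside 0.03 and -0.23 over all coding genes with a peak in both. Peg10 and Sgce share 1 promoter peak in each MEF list and count as 2 members here.

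The promoters below are those of members whose promoter peak call differed between the genotypes of a cell type or between the cell types of a genotype. They are in order of their highest fold, as far as RefSeq sequences (GRCm38.p6, the build of the peak lists) were at hand. Of the 40 members, 30 had an entry in that table and 10 had none (H19, Kcnq1, Cdkn1c, Peg10, Sgce, Rtl1, Klf14, Impact, Trappc9 and Peg13). Each sequence runs from 250 bases before the annotated start to 50 bases after it and is written 5′ to 3′ in the direction of transcription. Capitals mark 3 motifs searched on both strands: TATAAA of the TATA box, GGGCGG of the GC box, and TGCCGC, the methylated sequence that the imprint-keeping protein ZFP57 binds. The reverse complement of GGGCGG is CCGCCC, which can share bases with TGCCGC.
Meg3, chr12:109540746-109541045, plus strand: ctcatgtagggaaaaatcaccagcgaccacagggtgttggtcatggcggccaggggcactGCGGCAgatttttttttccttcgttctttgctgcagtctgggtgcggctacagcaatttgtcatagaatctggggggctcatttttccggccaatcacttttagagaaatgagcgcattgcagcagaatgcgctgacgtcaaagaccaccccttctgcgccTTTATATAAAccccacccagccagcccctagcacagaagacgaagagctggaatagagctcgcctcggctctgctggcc
Grb10, chr11:12037371-12037670, minus strand: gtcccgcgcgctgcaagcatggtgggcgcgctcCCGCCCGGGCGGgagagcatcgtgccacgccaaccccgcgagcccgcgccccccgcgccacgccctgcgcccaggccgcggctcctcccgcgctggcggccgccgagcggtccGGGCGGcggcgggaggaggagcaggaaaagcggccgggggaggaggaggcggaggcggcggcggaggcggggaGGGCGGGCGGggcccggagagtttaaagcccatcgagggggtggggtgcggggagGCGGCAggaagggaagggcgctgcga
H13, chr2:152669211-152669510, plus strand: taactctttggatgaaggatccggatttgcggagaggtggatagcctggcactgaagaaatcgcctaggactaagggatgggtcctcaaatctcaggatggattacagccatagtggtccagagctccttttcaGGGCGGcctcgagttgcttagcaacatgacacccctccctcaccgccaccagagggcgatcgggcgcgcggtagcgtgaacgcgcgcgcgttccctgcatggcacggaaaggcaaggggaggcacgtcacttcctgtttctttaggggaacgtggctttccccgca
Copg2, chr6:30896745-30897044, minus strand: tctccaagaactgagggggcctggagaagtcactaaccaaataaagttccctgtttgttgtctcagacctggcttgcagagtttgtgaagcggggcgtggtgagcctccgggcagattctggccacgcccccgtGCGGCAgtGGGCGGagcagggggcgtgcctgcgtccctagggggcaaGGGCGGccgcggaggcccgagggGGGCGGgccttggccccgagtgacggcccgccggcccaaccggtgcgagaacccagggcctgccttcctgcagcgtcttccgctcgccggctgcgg
Inpp5f, chr7:128611115-128611414, plus strand: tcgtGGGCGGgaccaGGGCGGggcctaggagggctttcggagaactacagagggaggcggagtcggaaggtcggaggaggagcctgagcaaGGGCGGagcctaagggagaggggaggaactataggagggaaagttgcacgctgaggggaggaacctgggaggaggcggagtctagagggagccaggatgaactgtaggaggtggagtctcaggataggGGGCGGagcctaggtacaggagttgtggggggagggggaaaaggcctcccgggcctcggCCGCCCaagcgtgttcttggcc
Mkrn3, chr7:62420104-62420403, minus strand: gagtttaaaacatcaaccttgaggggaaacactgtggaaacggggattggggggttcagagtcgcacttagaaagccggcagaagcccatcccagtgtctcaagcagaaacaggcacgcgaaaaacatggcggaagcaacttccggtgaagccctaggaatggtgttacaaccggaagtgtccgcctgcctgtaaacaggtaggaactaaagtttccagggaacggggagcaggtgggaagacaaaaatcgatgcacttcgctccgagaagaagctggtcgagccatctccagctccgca

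The Meg3 promoter, seen with Pol II in MEFs only, held TATAAA on both strands in overlapping letters (2 matches) and 1 TGCCGC, with 13 CpG dinucleotides. The Grb10 promoter, near a record TSS that had Pol II in MEFs only, held 5 GC boxes, 1 TGCCGC and 45 CpG. The H13 promoter had 1 GC box and 21 CpG, the Copg2 promoter 3 GC boxes, 1 TGCCGC and 25 CpG, and the Inpp5f promoter 5 GC boxes and 15 CpG. The Mkrn3 window held none of the 3 letter strings and 15 CpG. In WT MEFs the Pol II summit lay 17 bp downstream of this start for Meg3, 77 bp for Grb10, 91 bp for H13 and 181 bp for Inpp5f, and 93 bp upstream for Mkrn3. That of Copg2 lay 63 bp downstream in KO MEFs, the list with its highest fold. Of all 32851 promoters of this length in the table, 13.6% held TATAAA, 35.7% GGGCGG and 11.6% TGCCGC. Of the 47 promoters listed for the 30 matched members, several of which overlap each other, 10, 24 and 11 held these letters. A match is a description of the letters and not of binding.

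H19 and Igf2 share enhancers and an imprinting control region. H19 (chr7:142575529-142578143, minus strand) is a maternally expressed long non-coding RNA gene, and Igf2 (chr7:142650766-142666816, minus strand) encodes a paternally expressed fetal growth factor. Neither gene had a Pol II peak in the body or at the promoter in WT or KO mESCs. In WT MEFs a single peak of 5759 bp covered all of H19 (100% of the gene body), with a fold of 34.0 and a summit 605 bp past the gene end. In KO MEFs there was no peak in H19 and the nearest Pol II peak lay 44208 bp from its TSS. Of 193 coding and long non-coding promoters with at least the fold of H19 in WT MEFs, H19 was the 1 without a promoter peak in KO MEFs. It had the highest fold of the 1585 such promoters with a peak in WT MEFs only.

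Igf2 had no peak at the TSS of its gene record in any list. In WT MEFs, 2 Pol II peaks covered 70.6% of its body, of which the stronger was 13102 bp wide, with a fold of 15.4 and a summit 7413 bp downstream of that TSS, and it came within 1000 bp of the starts of 8 other transcripts. In KO MEFs Igf2 had no Pol II peak. The domain from H19 to Igf2 thus held 17.3 kb of Pol II peaks in WT MEFs and 0 kb in the other 3 lists. H2Bub1 covered 0% of both genes in all 4 lists, so Pol II peaks of this size in WT MEFs went with no H2Bub1 peak. The microRNA genes Mir675 in H19 and Mir483 in Igf2 lie inside these peaks of WT MEFs and inside no Pol II peak of the other lists. Their mature RNAs (RefSeq, GRCm38.p6) are shown with the seed, bases 2 to 8, in capitals, since they are the products encoded within these peaks.
miR-675-5p: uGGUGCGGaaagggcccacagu
miR-675-3p: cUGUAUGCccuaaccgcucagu
miR-483-5p: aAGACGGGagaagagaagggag
miR-483-3p: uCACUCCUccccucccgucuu

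None of the 4 seeds is shared. The difference at H19 and Igf2 rests on 1 library of each genotype. The WT MEF peak of H19 had a summit fold of 34.0 and a -log10 q of 309.9, far above the lowest -log10 q of a listed peak there, 1.42. The KO MEF list gives no value for signal below its own threshold, so the size of the difference is not known. The fibroblast markers had promoter peaks in both MEF lists, with lower folds in KO for all 6 (Col3a1 49.2 and 18.1, Fbn1 39.2 and 16.3, Col1a1 38.3 and 23.9 in WT and KO), and their part in this difference and in the lower Pol II of other members was not tested. The part that other cell types or single embryos had in the difference was not tested.

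The map of 4 domains shows the layout of the peaks. At the Dlk1 domain, Dlk1 encodes a Notch-related membrane protein that is paternally expressed, Meg3 is a maternally expressed long non-coding RNA gene, and Rtl1 comes from a retrotransposon and is needed in the placenta. Dlk1 (chr12:109452823-109463336) had no Pol II peak in its body in any list and 7.87% of H2Bub1 in WT mESCs only. Meg3 (chr12:109541001-109571726) had no Pol II promoter peak in mESCs and folds of 28.7 in WT and 25.3 in KO MEFs, which is above 96.3% and 95.3% of occupied coding promoters. The start of Meg3 thus had nearly the same fold in both genotypes, whereas the peaks further on were fewer. Peaks covered 13.2 kb of its body in WT MEFs (20 peaks) and 6.71 kb in KO MEFs (9 peaks).

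Rtl1, on the strand opposite to Meg3, had a promoter fold of 4.33 and 9 peaks over 3.93 kb of its body in WT MEFs, and 1 peak over 0.599 kb and none at the promoter in KO MEFs. Several microRNA genes lie opposite Rtl1, and reads of a ChIP-seq library carry no strand, so Pol II of either direction counts here. Of the microRNA hairpins within Rtl1, Mir433, Mir136 and Mir3071 lay in a Pol II peak in WT MEFs and Mir127 in KO MEFs. The whole domain held 26.5 kb of Pol II peaks in WT MEFs and 9.33 kb in KO MEFs (44 and 13 peaks), beside 0.308 kb and 0 kb in WT and KO mESCs. H2Bub1 on Meg3 was small throughout, at 7.02% and 1.55% of the body in WT and KO mESCs and 10.9% and 12.8% in WT and KO MEFs.

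**Figure D2:**
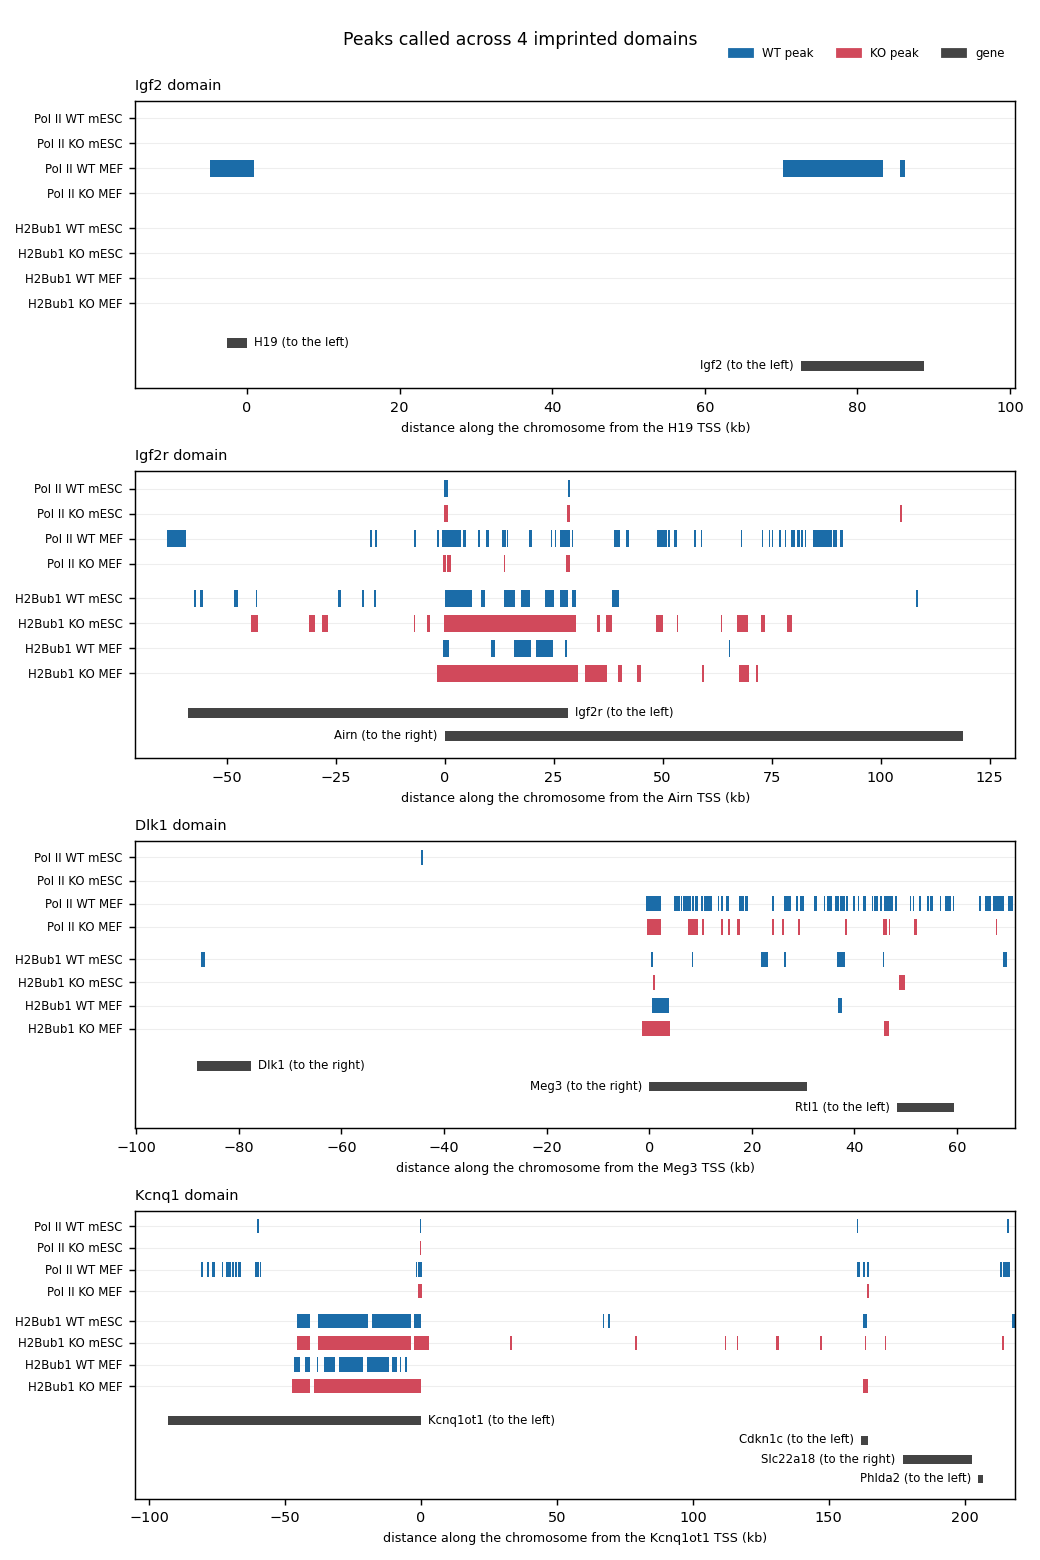
Peaks called across the Igf2, Igf2r, Dlk1 and Kcnq1 domains (the last from Kcnq1ot1 to Phlda2), drawn to scale as distance in kb along the chromosome from the TSS of H19, Airn, Meg3 and Kcnq1ot1. Each row is a list, blue bars are WT peaks, red bars KO peaks and dark bars the genes. The Igf2 domain has Pol II in the WT MEF row only, and the KO H2Bub1 rows show long blocks with 1 end near the Airn and Kcnq1ot1 TSS.

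Igf2r, the maternally expressed receptor that clears IGF2, and Airn, the paternally expressed RNA that silences it, are transcribed towards each other over 28.4 kb (the Airn TSS lies inside Igf2r). The Igf2r promoter had folds of 2.40 and 5.20 in WT and KO mESCs and of 12.5 and 5.94 in WT and KO MEFs. The order of the genotypes was thus opposite in the 2 cell types, but the WT mESC peak was weak (-log10 q of 2.22) and was lost at a -log10 q of at least 3 and with equal numbers of peaks, which leaves no ratio in mESCs. The Airn promoter had folds of 3.34 and 4.12 in WT and KO mESCs and of 17.9 and 10.7 in WT and KO MEFs, with the same order as Igf2r. In MEFs, the Airn body held 33 Pol II peaks over 25.9 kb in WT and 4 peaks over 2.70 kb in KO, and the Igf2r body 15 peaks over 12.04 kb and 4 peaks over 2.63 kb. The promoters kept a peak in KO MEFs, and most of the peaks beyond them were not seen there. In WT MEFs those further peaks were weaker than the promoter peaks, with folds of up to 7.01. The KO MEF list is also shorter, with 32232 against 45869 peaks, and the part of list length here was not tested.

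H2Bub1 was larger in KO in both cell types, so its order was that of promoter Pol II in mESCs and opposite to it in MEFs. It covered 22.3% of Igf2r in WT and 38.5% in KO mESCs, and 12.1% and 34.4% in WT and KO MEFs. For Airn these shares were 15.8%, 33.0%, 8.95% and 34.4%. Most of this lay where the genes overlap. The shared bases were covered to 55.4% in WT and 100% in KO mESCs, and to 36.2% in WT and 100% in KO MEFs. The bases of Igf2r alone were covered to 6.40% and 8.96% in WT and KO mESCs and to 0.452% and 2.84% in MEFs, so the larger share of Igf2r in KO cells was mainly H2Bub1 between the Airn TSS and the Igf2r TSS.

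The Kcnq1 domain is governed by Kcnq1ot1 (chr7:143203458-143296549, minus strand), a paternally expressed antisense RNA gene that lies wholly inside the potassium channel gene Kcnq1. Kcnq1ot1 had a promoter peak in every list, with folds of 5.05 and 5.33 in WT and KO mESCs and of 11.0 and 6.77 in WT and KO MEFs. The promoter of Kcnq1 had none in any list. Pol II peaks covered 11.0 kb of the Kcnq1ot1 body in WT MEFs (14 peaks) and 1.01 kb in KO MEFs (2 peaks). H2Bub1 covered 43.2% and 45.0% of Kcnq1ot1 in WT and KO mESCs and 31.0% and 49.3% in WT and KO MEFs, whereas the bases of Kcnq1 outside it were covered to 1.28% and 3.29% in mESCs and to 0% and 0.0554% in MEFs. The H2Bub1 of Kcnq1 in MEFs thus lay almost wholly in bases it shares with Kcnq1ot1, and the peaks carry no strand.

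Of the genes that Kcnq1ot1 is known to silence, Cdkn1c encodes a cyclin-dependent kinase inhibitor, Phlda2 limits placental growth and Slc22a18 encodes a transporter. Cdkn1c had no Pol II promoter peak in mESCs and folds of 14.1 in WT and 7.99 in KO MEFs. Its H2Bub1 differed in opposite directions, with 54.0% and 14.7% of the body covered in WT and KO mESCs, but 0% and 66.6% in WT and KO MEFs. Cdkn1c is 2.71 kb long, each of the 3 values above 0% comes from 1 peak, and WT MEFs had none. With only peaks of a -log10 q of at least 3, the difference was 0 points in both cell types. Phlda2 and Slc22a18 had neither mark in any list. Ascl2, a trophoblast transcription factor, had no Pol II peak and H2Bub1 over 47.0% of its body in WT mESCs, 10.1% in KO mESCs and 0% in MEFs.

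The neighbours Cd81 and Tssc4 at the edge of the domain are broadly used genes that are imprinted mainly in placenta. Cd81, a tetraspanin, had promoter folds of 4.79 and 7.66 in WT and KO mESCs and of 17.4 and 20.9 in WT and KO MEFs, and H2Bub1 over 99.2%, 100%, 52.1% and 88.1% of its body in the same order. Tssc4 had folds of 9.54 and 7.40 in mESCs and of 20.8 and 13.6 in MEFs, and H2Bub1 over 88.0%, 90.1%, 38.5% and 90.6%. Both genes had Pol II and H2Bub1 in every list.

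In the Peg3 domain, both members encode zinc finger proteins, Peg3 from the paternal and Zim1 from the maternal chromosome. Peg3 had promoter folds of 2.66 and 5.61 in WT and KO mESCs and of 16.5 and 12.9 in WT and KO MEFs. As at Igf2r, its WT mESC peak was weak (-log10 q of 2.98) and was lost at a -log10 q of at least 3 and with equal numbers of peaks. It had H2Bub1 over 0% and 23.7% of its body in mESCs and 2.92% and 15.5% in MEFs. Zim1 had a promoter peak in WT MEFs only, with a fold of 5.45. Its H2Bub1 was limited to 4.53% in KO mESCs.

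In the Peg10 domain, Peg10 (derived from a retrotransposon) and Sgce (epsilon-sarcoglycan) are paternally expressed from TSSs that face away from each other, and a single Pol II peak spans both. Its fold was 9.35 in WT and 7.22 in KO MEFs, with none in mESCs. H2Bub1 covered 11.5% of Peg10 in KO mESCs and 20.7% of Sgce in KO MEFs, and 0% of either in the other 3 lists. Ppp1r9a, the actin-binding protein neurabin, had Pol II in all 4 lists, with folds of 5.72 and 5.91 in WT and KO mESCs and of 4.71 and 5.62 in WT and KO MEFs. Folds are relative to each library, and these lay above 75.0% and 75.5% of occupied coding promoters in mESCs but above 8.51% and 14.2% in MEFs. H2Bub1 covered at most 2.76% of this gene of 262.7 kb. Asb4, a SOCS box protein, had neither mark.

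Mest encodes a protein of the hydrolase fold and is paternally expressed from a start 14503 bp inside its gene record. The TSS of the record had no peak, and the inner start had folds of 8.003 and 4.73 in WT and KO mESCs and of 27.8 and 20.02 in WT and KO MEFs. In MEFs, Pol II peaks covered 10.4 kb of Mest in WT (8 peaks) and 1.40 kb in KO (3 peaks). The peak at this start was 3648 bp wide in WT and 787 bp in KO, so the start kept most of its fold while the region around it held less Pol II above the threshold. Copg2, a coatomer subunit that ends within Mest, had a promoter fold of 3.73 in WT mESCs and no peak in the KO there, and folds of 7.15 and 10.49 in WT and KO MEFs. Klf14 had neither mark.

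In the Snrpn domain, all 4 members are paternally expressed. Snrpn encodes a spliceosome protein, Ndn and Magel2 encode MAGE family proteins, and Mkrn3 encodes a makorin. The main start of Snrpn, 135108 bp inside the gene record, had a fold of 4.30 in WT mESCs and no peak in the KO there, and folds of 11.6 and 4.72 in WT and KO MEFs. Mkrn3 had folds of 7.50 in WT and 2.92 in KO MEFs, the lowest ratio of KO over WT among the members with a promoter peak in both MEF lists in the window of 1000 bp (log2 ratio -1.36), though not in the narrow window described below for Grb10. Ndn had no peak at its TSS but 1 in its body, with a fold of 4.14 in KO mESCs and folds of 13.7 and 4.53 in WT and KO MEFs. Magel2 had no Pol II peak.

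H2Bub1 in this domain was larger in KO for 3 of its members. It covered 9.69% and 27.6% of Ndn in WT and KO mESCs and 9.88% and 34.6% in WT and KO MEFs. For Mkrn3 H2Bub1 covered 50.7% and 66.7% of it in WT and KO mESCs, and 0% and 50.2% in WT and KO MEFs. Magel2 had 14.7% in WT mESCs and 0% in the other lists, and Snrpn at most 2.69%.

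Grb10, an adaptor that dampens signalling of the insulin and IGF1 receptors, had the longest stretch of Pol II peaks of all members in MEFs and no Pol II peak in WT mESCs. Its strongest peak in MEFs lay at the start shown above, 1282 bp inside the gene record, with folds of 27.5 in WT and 18.5 in KO, and that start had a fold of 3.33 in KO mESCs, where a peak further in had 3.52. The log2 ratio of KO over WT MEFs was -0.57. It was -3.24 in a narrow window at the record's TSS (100 bp before to 300 bp after), which the WT peak spans and where the KO list has only a separate, lower peak. Peaks covered 51.0 kb of the body in WT (67 peaks) and 47.0 kb in KO (64 peaks), a ratio of 0.922. Long stretches of Pol II were thus seen on Grb10 in both genotypes, unlike on Airn, where the ratio was 0.104. H2Bub1 on Grb10 was 0% and 15.2% in WT and KO mESCs, and 10.8% and 57.4% in WT and KO MEFs.

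Gnas encodes the stimulatory G protein alpha subunit and several imprinted products from starts further upstream. The first start of the record had a peak in WT of both cell types (folds of 4.04 and 4.05) and in KO of neither. The start 43250 bp further in had a fold of 3.91 in WT mESCs and folds of 31.9 and 6.88 in WT and KO MEFs, and the start of the alpha subunit, 45686 bp in, had folds of 3.73 and 4.32 in WT and KO mESCs and of 31.9 and 20.9 in WT and KO MEFs. In WT MEFs 1 peak of 6065 bp spans both inner starts, so their values are the same there. Pol II peaks covered 15.3 kb of Gnas in WT and 6.24 kb in KO MEFs. H2Bub1 covered 31.2% and 52.8% in WT and KO mESCs and 24.6% and 49.6% in WT and KO MEFs.

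Nnat, the paternally expressed membrane protein neuronatin, is nested in Blcap. Nnat had Pol II in MEFs only, with folds of 2.97 in WT and 3.48 in KO. Blcap had its Pol II at a start 4913 bp inside its record, with folds of 5.00 and 3.35 in WT and KO mESCs and of 18.3 and 9.99 in WT and KO MEFs. H2Bub1 covered 32.8% and 76.8% of Blcap in mESCs and 46.9% and 82.5% in MEFs. Nnat lay in these same H2Bub1 peaks, to 20.98% in WT mESCs and to 100% in the other 3 lists.

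Mcts2, a paternally expressed retrogene, is nested in H13, which encodes signal peptide peptidase. H13 had a promoter fold of 3.26 in WT mESCs and no peak in the KO there, and folds of 21.2 and 11.0 in WT and KO MEFs. Mcts2 had folds of 5.77 and 3.73 in WT and KO mESCs and of 15.8 and 11.3 in WT and KO MEFs, so Pol II was lower in KO at both starts wherever both lists had a peak. H2Bub1 covered 53.9% and 87.6% of H13 in WT and KO mESCs and 26.7% and 100% in WT and KO MEFs. In KO MEFs a single H2Bub1 peak of 39.5 kb spanned the whole of H13 with Mcts2 inside.

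The remaining members differed in where Pol II was seen. Plagl1, a zinc finger protein, had low folds of 3.32 and 2.36 in WT and KO mESCs at the record's TSS, of which the second is lost at a -log10 q of at least 3. Its inner start, 30187 bp further in, was occupied in all 4 lists, with folds of 7.86 and 12.02 in WT and KO mESCs and of 28.6 and 22.7 in WT and KO MEFs. Impact, a regulator of translation, had folds of 19.1 and 13.1 in WT and KO MEFs at the record's TSS and none there in mESCs. An inner start of Impact, 16420 bp further in, had a peak within 1000 bp in all 4 lists. The folds there were 3.54 and 4.73 in WT and KO mESCs and 17.1 and 16.4 in WT and KO MEFs. The mESC summits lay apart, 16467 bp from the record's TSS in WT and 17892 bp in KO. The start at 16071 bp had the WT mESC peak and not the KO one. Slc38a4, an amino acid transporter, had Pol II in WT only, with folds of 3.47 in mESCs and 7.10 in MEFs, and the nearest Pol II peak in the KO lists lay 190977 bp and 190832 bp from its TSS. Its H2Bub1 share was nonetheless larger in KO, with 29.9% and 62.9% in WT and KO mESCs and 0% and 31.4% in WT and KO MEFs.

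Trappc9, a subunit of the TRAPP trafficking complex, and Peg13, the long non-coding RNA gene nested in it, had promoter peaks in both MEF lists. The folds were 5.86 and 8.20 in WT and KO MEFs for Trappc9 and 9.07 and 6.34 for Peg13. At the record's TSS, Peg13 was the 1 member with a promoter peak in KO only, with a fold of 4.14 in KO mESCs. Inpp5f, a phosphoinositide phosphatase, had folds of 9.74 and 9.24 in WT and KO MEFs at the record's TSS. At a start 77161 bp further in, Inpp5f had folds of 7.87 and 4.67 in WT and KO MEFs. Pol II peaks covered 4.47 kb of its body in WT and 1.94 kb in KO MEFs, and H2Bub1 2.22% and 51.7% of it.

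In total, the bodies of the 40 members hold 2365 kb without double counting. Pol II peaks covered 19.7 kb of them in WT and 12.7 kb in KO mESCs, a ratio of 0.644 beside 0.642 over all coding gene bodies. In MEFs they covered 208.5 kb in WT and 104.6 kb in KO, a ratio of 0.502 beside 0.663. Without Grb10 the ratio in MEFs was 0.366. With equal numbers of peaks in the WT and KO lists it was 0.598 for the members and 0.756 for all coding genes, so the members had the lower ratio there too, but in mESCs it was 0.860 and 0.784, with the members higher. The members here include 5 long non-coding genes. The sums over single gene bodies gave 0.552 for the 35 coding members and 0.663 for all coding genes in MEFs. Fewer bases in Pol II peaks in KO were seen for 13 of 20 coding members with any in mESCs, against 69% of such coding genes, and for 23 of 28 in MEFs, against 74%. All 5 long non-coding members had fewer in KO MEFs, against 75.3% of such genes. Fewer cells that use a gene and less Pol II per cell cannot be told apart here.

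**Figure D3:**
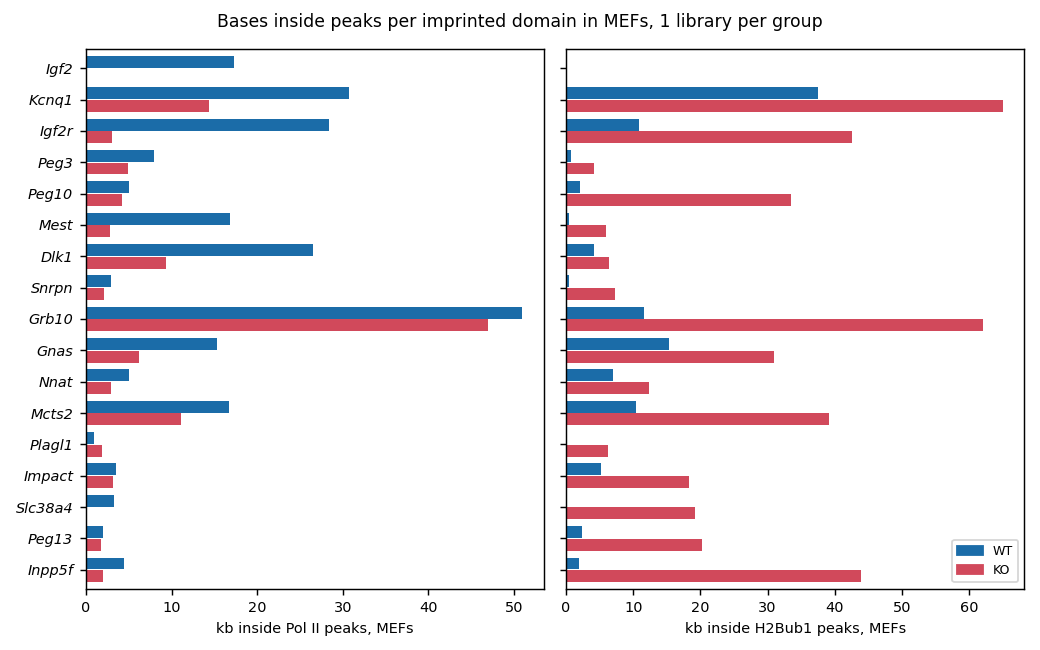
Bases inside Pol II peaks (left) and H2Bub1 peaks (right) from the first to the last member of each of 17 imprinted domains in MEFs, in kb. Blue bars are WT and red bars KO, each from 1 library. Pol II bars are longer in WT in every domain but Plagl1 (0.892 kb and 1.90 kb), with Grb10 nearly equal at 51.0 and 47.0 kb, and H2Bub1 bars are longer in KO wherever a domain has any.

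H2Bub1 is placed on gene bodies as Pol II elongates and is removed again by the proteases that need ATXN7L3. A gene body was counted as marked when at least 1 bp of it lay in an H2Bub1 peak. In mESCs, 23 of 35 coding members had H2Bub1 in WT, against 53.6% of coding genes, and 27 of 35 in KO, against 60.8%. In MEFs it was 15 of 35 in WT, against 30.4%, and 24 of 35 in KO, against 53%. The WT counts rest on peaks near the threshold: over all 40 members they were 27 in mESCs and 19 in MEFs, and 12 and 2 at a -log10 q of at least 3, where KO went from 31 to 23 and from 28 to 26. The 5 long non-coding members had H2Bub1 in 4 cases in WT and in 4 in KO MEFs, all but H19, against 7.47% and 23.3% of long non-coding genes. Of the coding members 5 of 35 had no H2Bub1 in any list (Igf2, Slc22a18, Phlda2, Asb4 and Klf14), against 32.9%. At the record's TSS, 13 of 35 had no Pol II promoter peak in any list, against 42.4%. With every annotated start taken, 9 of the 35 had none in any list, against 38.6%: Ascl2, Kcnq1, Slc22a18, Phlda2, Asb4, Klf14, Dlk1, Ndn and Magel2.

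The covered share was larger in KO for most members that had H2Bub1 in either genotype, at shares near those of all coding genes. In mESCs it was larger for 25 of the 29 coding members with H2Bub1 in either genotype, against 83.6% of such coding genes, and smaller for 4 of 29 (Ascl2, Cdkn1c, Dlk1 and Magel2), against 14.7%. With only peaks of a -log10 q of at least 3, none of these 4 was smaller in KO: Ascl2 was larger by 10.1 points and the other 3 had no H2Bub1 peak in either mESC list. In MEFs it was larger for 23 of 24, against 98.7%, and smaller for 0 of 24, against 0.949%. The 1 left was Nnat, at 100% in both. H2Bub1 in KO only was seen for 6 of 35 in mESCs (Peg3, Zim1, Peg10, Rtl1, Grb10 and Inpp5f), against 10.1%, and for 9 of 35 in MEFs (Cdkn1c, Sgce, Ppp1r9a, Copg2, Snrpn, Mkrn3, Mcts2, Plagl1 and Slc38a4), against 22.9%. The share in KO only was thus 17.1% in mESCs and 25.7% in MEFs. The exact 95% intervals, 6.56% to 33.6% and 12.5% to 43.3%, held the shares of all coding genes. Of those named in mESCs, Zim1, Peg10, Rtl1 and Inpp5f had no H2Bub1 peak left at a -log10 q of at least 3. The median share of coding members with H2Bub1 in both genotypes went from 22.3% in WT to 27.6% in KO mESCs (21 genes) and from 12.1% to 49.6% in MEFs (15 genes), beside 16.2% to 38.1% and 14.7% to 64.0% over all coding genes. The median of the differences gene by gene was 15.2 points in mESCs and 25.0 points in MEFs for the members, beside 12.3 and 37.5 points over all coding genes, so in mESCs the medians of the shares and the median of the differences rank members and coding genes in opposite ways.

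**Figure D4:**
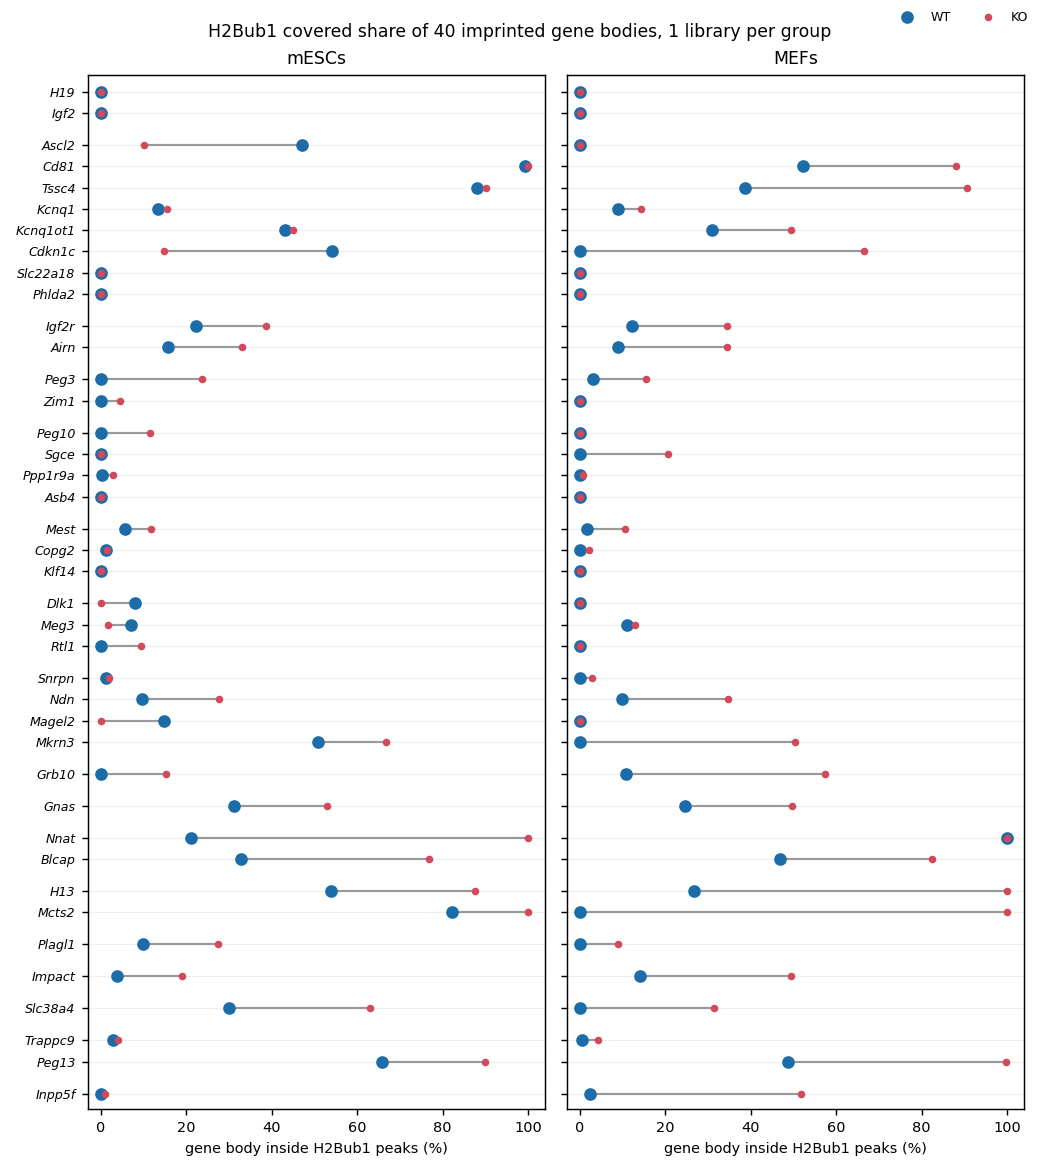
Share of each of the 40 gene bodies inside H2Bub1 peaks, in percent, in mESCs and in MEFs. Large blue points are WT, small red points KO, and grey lines join the values of a gene. In MEFs red points lie to the right of blue points except where both coincide, and in mESCs Ascl2, Cdkn1c, Dlk1, Meg3 and Magel2 have the red point to the left.

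In WT MEFs, 10 of the 21 coding members with a Pol II promoter peak had no H2Bub1 peak in the body, which is 47.6% and equals the 47.6% of all such coding genes. Among them was Cdkn1c with a fold of 14.1, and Mcts2 with 15.8. In KO MEFs both lay in H2Bub1 peaks with Pol II folds lower than in WT, Mcts2 wholly inside the peak that spans H13, and Cdkn1c in a peak that does not reach a -log10 q of 3.

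A wider list of 32 other imprinted genes was read as counts. A Pol II promoter peak was seen for 9 and 8 of them in WT and KO mESCs, and for 15 and 14 in WT and KO MEFs. Of the 29 coding genes among them it was 9, 8, 14 and 14, beside the 33.9%, 31.3%, 54.1% and 51.1% of all coding genes given above. The 4 with the highest fold were Pon2 (24.9 in WT and 17.3 in KO MEFs), Ube3a (21.4 and 20.4), Nap1l4 (21.1 and 21.1) and Usp29, which starts beside Peg3 and shares its peak (16.5 and 12.9). H2Bub1 covered a larger share in KO for 13 and a smaller one for 3 in mESCs, and for 16 and 1 in MEFs. Among the coding ones it was 12 and 2 in mESCs and 15 and 1 in MEFs, where of all coding genes with H2Bub1 in either genotype 83.6% were larger and 14.7% smaller in mESCs, and 98.7% and 0.949% in MEFs. Of 14 factors that set or keep imprints, 6 had a Pol II promoter peak in each mESC list, and 9 and 8 in WT and KO MEFs, beside the same shares, and all 14 are coding. The 4 with the highest fold were the zinc finger protein Zfp445 (17.5 in WT and 8.82 in KO MEFs), the chromosome-structure protein Smchd1 (12.7 and 17.5), the demethylase Tet2 (16.8 and 15.4) and the insulator protein Ctcf (16.3 and 12.9). The H2Bub1 share of these factors was larger in KO for 13 and smaller for 1, Uhrf1, in mESCs, and larger for 12 and smaller for 0 in MEFs, beside these same shares of all coding genes.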

How the data were processed

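ChIP-seq peak lists of 8 libraries were read, with 1 library per group, and the other 8 samples of the labels (inputs and Pol II phosphorylated at serine 2) were not analysed here. Per the methods and the submitters' processing notes, the authors aligned 50 bp single-end reads to mm10 with Bowtie 1.0.0 and called peaks per library with MACS2 2.1.1.20160309, broad for H2Bub1 and narrow for Pol II. The control and the thresholds are not given in the sources used here. Scaling over intergenic regions (H2Bub1) and by mapped reads (Pol II) is described, but not how it entered the calls. The authors deposited for each peak a fold, a linear ratio over the local background of the same library, with -log10 p and -log10 q values. The score column the authors deposited was not used. A fold compares a library with itself, so ratios of KO over WT give no absolute change. Depth is unknown, and a deeper library gives more and wider peaks, hence the alternative with equal numbers of peaks.

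Peaks on 21 assembled chromosomes were set against GENCODE M21 (same build, GRCm38) with Python 3.11.15 and numpy 2.4.6. Promoters, gene bodies and the background of all coding or long non-coding genes were defined as in the report. A gene body's covered share is the percent of its bases inside peaks. Every member was named, ordered by domain. Of the 2 further lists (32 other imprinted genes, 14 imprint factors), counts and the 4 genes of highest Pol II fold were given. Promoter sequences were those of members whose peak call differed between genotypes or between cell types, at most 6. The members and lists were chosen with earlier results of these data known. Functions were tested on simulated peaks. No test of the difference between groups was possible with 1 library per group. Alternatives tried were peaks with -log10 q of 3 or more, WT and KO lists of equal length, a narrow promoter (100 bp before the TSS and 300 bp after it), any annotated TSS, coding members only, at least 10% of the gene body, and bodies without bases of other genes.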

Additional observations from a re-analysis of the deposited data

Results flagged for a closer look

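At Cdkn1c the order of the genotypes differed between the cell types. Its H2Bub1 covered share, KO minus WT, was -39.3 points in mESCs and 66.6 points in MEFs, each from 1 library per genotype, and this difference between the cell types was not tested. In KO MEFs the H2Bub1 peak over Cdkn1c did not reach a -log10 q of 3, and the difference was then 0 points in both cell types.

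At Igf2r the log2 ratio of KO over WT Pol II promoter fold was 1.11 in mESCs and -1.08 in MEFs, which was likewise not tested. The WT mESC peak behind the first value had a fold of 2.40 and a -log10 q of 2.22, near the lowest value listed. It was lost at a -log10 q of at least 3 and with equal numbers of peaks, so the ratio in mESCs does not exist under these settings.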

How the results depend on the processing

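No paired analysis was possible because each group had 1 library, and for the same reason no replicate could be left out. Of 60 alternative counts of members, 54 stayed within 1.5 times the reported count. At a -log10 q of at least 3, the members with a Pol II promoter peak in 1 genotype only in mESCs were 8 and not 5, and those with H2Bub1 were 12 and not 27 in WT mESCs and 2 and not 19 in WT MEFs. With at least 10% of the gene body required, those with H2Bub1 were 17 in WT mESCs and 12 in WT MEFs, and with bases of other genes left out 12 in WT MEFs. Of the 19723 WT MEF H2Bub1 peaks, 1352 reached a -log10 q of 3, so the low WT count there follows from peaks near the threshold. Of 166 alternative H2Bub1 differences of single members, 48 moved by more than 1.5 times, 36 of them among the 60 at a -log10 q of at least 3 (Tssc4 in mESCs from 2.17 to 90.1 points, Grb10 in mESCs from 15.2 to 0.42 points), so the sizes of single differences depend on the threshold. A further 2 turned around: Ascl2 in mESCs was 10.1 points at a -log10 q of at least 3 (its WT peak is then left out), and Mest in MEFs was -1.52 points with equal numbers of peaks. For 7 alternative Pol II ratios a peak was lost and no ratio was left (Igf2r and Peg3 in mESCs at the stricter -log10 q and with equal numbers, Plagl1 in mESCs at the stricter -log10 q and in the narrow promoter, Nnat in MEFs with equal numbers). Of the 113 left 1 turned around, Plagl1 in mESCs, with a log2 ratio of 0.61 at any annotated TSS, where its inner start replaces the first, and 1 moved, Grb10 in MEFs, from -0.57 to -3.24 in the narrow promoter. The ratio of H2Bub1 peak bases in MEFs was 3.69 as deposited, and under alternatives chosen after seeing the data 3.40 with equal numbers and 39.9 at the stricter threshold, beside 4.52, 4.25 and 22.3 over all coding gene bodies, so members lay below coding genes at the first 2 settings and above them at the third, where 8.51 kb of WT peaks were left (without Grb10 3.12 kb, and a ratio of 92.1). In mESCs the ratio was 1.77, 1.70 and 2.52 for members and 2.06, 1.97 and 3.60 for coding genes, with members below at all 3 settings.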
